A study of Mus musculus with 6 samples.

Results

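Open chromatin inside exons and at gene ends was examined in astrocyte nuclei of the mouse primary visual cortex (V1) with and without the glucocorticoid receptor (GR). Peaks of the 6 ATAC-seq libraries were merged wherever they overlapped by 1 bp or more, and 140360 merged regions with a peak in 2 or more libraries were kept. A region was counted as exonic when its midpoint lay in an exon of a protein-coding GENCODE transcript (mm10) and more than 2 kb from every transcription start site (TSS). This rule gave 3611 regions, 2.57% of those kept, in 2845 genes. Of these, 1604 had their midpoint in a coding exon, 1967 in a 3′ untranslated region (3′ UTR) and 40 in a 5′ UTR. The peak calls thus decided which regions were kept, and position alone which of these were exonic. No fold or difference between the groups was used, but a region with peaks in 1 group only was kept through that group.

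All animals carried GR fl/fl alleles, in which Cre recombinase removes a part of *Nr3c1*, the gene of GR. Newborn pups received an AAV2/5 vector in which the astrocyte promoter GfaABC1D drives Cre together with EGFP-KASH, a tag of the nuclear envelope, and which carries the 4x6T cassette (GR-KO). GR-con pups received the same vector with ΔCre, an inactive Cre, so both groups expressed the tag. At postnatal day 21 GFP-positive nuclei were sorted, and each of the 3 libraries per group was made from several pooled mice. Only transduced V1 nuclei were therefore measured, and p-values describe the spread between pools, not between single animals.

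ATAC-seq uses the Tn5 transposase, which inserts sequencing adapters where DNA is not wrapped in nucleosomes, so peaks mark promoters, enhancers and insulator sites. Exons can hold such elements too, including enhancers of the host gene or of a neighbouring gene, within sequence that also encodes protein or controls the mRNA. GR is a nuclear receptor that binds as a dimer to a palindromic response element once corticosterone, the mouse stress hormone, has entered the cell, and it activates some genes and represses others. Each peak has a fold enrichment, the ratio of the read coverage at its summit to the coverage of its local background, each with 1 added.

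The GR element was searched as half-site GNACA, 3 bases, half-site TGTNC within 100 bp of the strongest summit of a region. It occurred in 23 exonic regions, and the following 30-base windows hold it at 3′ UTR, coding exon and 5′ UTR regions to which the comparison of the groups returns (mm10, plus strand, palindrome in capitals). They show that the middle bases and the variable position of each half-site differed from region to region.
*Stk10* 3′ UTR, chr11:32623371-32623400: cagagaagGCACAGGCTGTACtgccagcct
*Fam49b* 3′ UTR, chr15:63931563-63931592: tcactgaaGAACACTGTGTGCtccatctgc
*Ssbp3* 3′ UTR, chr4:107048886-107048915: gatccagcGTACACACTGTTCcaggatggc
*Rreb1* 3′ UTR, chr13:37934239-37934268: ctccctctGGACATGTTGTACctcgtgaga
*Fbh1* coding exon, chr2:11767354-11767383: gagcactgGGACAAACTGTCCtctgcccct
*C330007P06Rik* coding exon, chrX:36824071-36824100: tctcagctGCACAGGATGTTCtcaggctga
*Usp54* 5′ UTR, chr14:20607583-20607612: aggaccaaGCACAGCTTGTTCttcagccct

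A second word, ACTGTA, read as TACAGT on the other strand, is shown at the 2 regions with this word that passed the limma threshold as higher in GR-KO and at 2 that came close to it (mm10, plus strand, word in capitals).
*Nup155* 3′ UTR, chr15:8158718-8158747: cctcactgtctaACTGTAtgcttcaagcca
*Fam217a* coding exon, chr13:34911391-34911420: taataagtggttTACAGTgaagagcctggg
*Pigh* 3′ UTR, chr12:79082338-79082367: taaaccggccacTACAGTctaggagtcctc
*Ncapg2* 3′ UTR, chr12:116460783-116460812: cactggtgctctACTGTAccctgtgccttt

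The lists held 179462 to 198929 peaks per library, and no exonic region lay in *Nr3c1*. The 13 other regions of *Nr3c1* held intronic ones that differed in opposite directions. One had folds of 17.4, 17.4 and 14.3 in the GR-con libraries and 6.68, 4.73 and 6.36 in the GR-KO libraries. Another had no peak in GR-con and folds of 6.24, 4.76 and 6.39 in GR-KO, so the peaks of this gene gave no check of the labels in 1 direction. All 10 astrocyte marker genes had a peak within 1 kb of a TSS in each library, with a median rank percentile of 54.1 to 54.7 in GR-con and 58.9 to 62.6 in GR-KO. Of the markers of other cells, 8 to 9 of 10 neuronal, 5 to 6 of 10 oligodendrocyte, 2 to 3 of 7 microglial, 3 of 5 endothelial and 3 of 4 mural genes had one. *Mog*, *Mag*, *Mobp*, *Sox10*, *Cx3cr1*, *Aif1*, *C1qa* and *Spi1* had none, whereas the neuronal gene *Snap25* was at percentiles of 91.3 to 98.8 over the libraries and *Pdgfra*, of oligodendrocyte precursors, at 84.3 to 89.3. Neuronal markers had median percentiles of 50.1 to 56.9 in GR-con and 46.2 to 54.5 in GR-KO, where each was below every astrocyte median. Oligodendrocyte and precursor markers had 21.8 to 24.0 and 11.3 to 20.9, and endothelial markers 25.6 to 26.9 and 7.71 to 16.2, both lower in GR-KO without overlap. The part of these marker differences in the results below was not tested.

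Coding exons and 3′ UTRs held at least as many open regions per length as introns. Per megabase of eligible sequence there were 76.2 regions in coding exons, 74.6 in 3′ UTRs, 70.3 in introns and 28.1 between genes. In single libraries the density was 61.8 to 63.98 in coding exons, 60.6 to 63.5 in 3′ UTRs and 55.2 to 59.1 in introns, so the lowest exonic value lay above the highest intronic one. Coding exons of 1000 bp or more had 96.9 regions per megabase and shorter ones 69.0.

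The 2 kinds of exonic region sat differently in their exons. A coding region had a median width of 450.5 bp, and its exon a median length of 292 bp. In 908 of 1604 (56.6%) the exon was shorter than the region, and only 375 (23.4%) lay wholly inside the exon, so most of these regions reached into intron. In contrast, 1675 of the 1967 3′ UTR regions (85.2%) lay wholly inside their exon, of median length 3073 bp. They were spread along the UTR, at a median of 1292 bp past the stop codon, with 498 (25.3%) within 500 bp of the stop codon and 463 (23.5%) within 500 bp of the transcript end. Of the coding regions, 478 (29.8%) were in a last exon, and 49 were also 3′ UTR in another transcript. The median GC content within 100 bp of the strongest summit was 55.7% for coding regions, 51.7% for 3′ UTR regions and 49.8% for intronic regions.

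Exonic regions ranked somewhat above intronic ones in strength. Regions were ranked by fold in each library, and the percentile is among the regions with a peak in that library. In the order GR-con 1 to 3 and GR-KO 1 to 3, the median percentile of coding regions was 44.9, 45.3, 46.8, 45.9, 44.4 and 44.4. That of 3′ UTR regions was 45.6, 45.9, 46.8, 45.9, 45.9 and 45.3. Intronic regions had medians of 41.6 to 42.1, below every exonic median, and intergenic regions had medians of 51.2 to 52.0, above them. The coding minus intronic difference was 3.43 ± 1.04 points (SD, n = 6; exact paired permutation test, two-sided, p = 0.0312, adjusted p = 0.0469 over 3 comparisons), higher in 6 of 6 libraries. The 3′ UTR minus intronic difference was 4.07 ± 0.617 (SD, n = 6; exact test, p = 0.0312, adjusted p = 0.0469), also in 6 of 6 libraries, where 0.0312 is the smallest p that 6 libraries allow. Coding minus 3′ UTR was −0.637 ± 0.586 (SD, n = 6; exact test, p = 0.125). It was 2.02, in favour of coding exons, among regions with a peak in all 6 libraries (exact test, adjusted p = 0.0312).

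**Figure D1:**
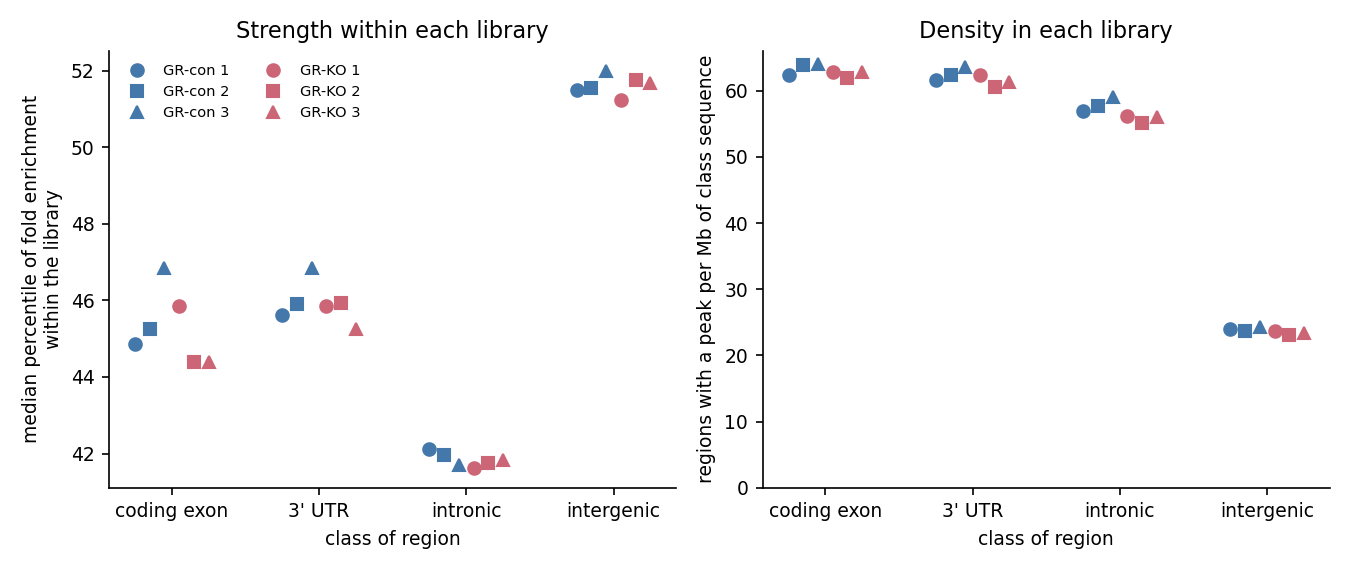
Left, median percentile of fold enrichment within each library, and right, regions with a peak per megabase of class sequence, for coding exon, 3′ UTR, intronic and intergenic regions (x axes), with 1 point per library, GR-con in blue and GR-KO in red. Coding exon and 3′ UTR percentiles, 44.4 to 46.8, sit between the intronic values of 41.6 to 42.1 and the intergenic values of 51.2 to 52.0, and their densities of 60.6 to 63.98 lie above the intronic 55.2 to 59.1.

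No class value passed a test between the groups. Coding exons made up 1.12 ± 0.0131% of the regions of a GR-con library and 1.13 ± 0.00225% in GR-KO (SD, n = 3 each; exact permutation test, two-sided, p = 0.2, adjusted p = 0.4). For 3′ UTRs the shares were 1.38 ± 0.00819% and 1.39 ± 0.0102% (SD, n = 3 each; exact test, p = 0.1, adjusted p = 0.4). With 3 libraries against 3 the test cannot give a p below 0.1. The coding minus intronic percentile was 3.73 ± 1.25 in GR-con and 3.14 ± 0.943 in GR-KO (SD, n = 3 each; exact test, adjusted p = 0.667), and the 3′ UTR minus intronic percentile 4.20 ± 0.841 and 3.94 ± 0.444 (adjusted p = 0.8 by the same exact test).

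The strongest coding region lay in exon 2 of 2 of *4930407I10Rik*, with folds of 27.9 to 30.3 over the 6 libraries and a mean percentile of 99.6. Others of the top 5 were in *Zp3*, which encodes a protein of the egg coat (23.6 to 31.0), *Srcin1*, a SRC kinase inhibitor of neurons (25.2 to 28.8), *Magi1*, a scaffold of cell junctions (24.1 to 28.4), and *Sptbn4*, a spectrin of the axon initial segment (25.2 to 28.6). The strongest 3′ UTR regions were in *4931406B18Rik* (26.4 to 30.7), *Skap2*, a SRC-associated adaptor (25.4 to 31.3), *Mmp25*, a membrane-anchored metalloprotease (25.0 to 30.1), *Ppp1r3b*, a glycogen-targeting subunit of protein phosphatase 1 (24.2 to 29.2), and *Ppp2r1b*, a scaffold subunit of protein phosphatase 2A (24.6 to 30.1). Several of these genes are known from cells other than astrocytes, and none of the 10 regions passed the limma test between the groups described below.

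Recognition sequences of CTCF, the insulator protein, became more frequent with strength. With all kept regions split by fold into 4 equal parts, from the weakest to the strongest, 1.06%, 3.07%, 6.93% and 13.6% of exonic regions held a CTCF match near the summit. In the strongest part the share was 63 of 379 (16.6%) for 3′ UTRs, 32 of 325 (9.85%) for coding exons and 10.8% for introns. Over all strengths it was 6.61% in 3′ UTRs, 4.36% in coding exons and 4.43% in all kept regions. The *Skap2* region was among those with a match. Other words varied by class, and CAGCTG, an E-box word, occurred in 22.8% of coding, 18.1% of 3′ UTR and 16.5% of all kept regions. TAATTA, a homeodomain word, was in 2.12% of coding, 3.97% of 3′ UTR and 6.26% of all kept regions. The nuclear factor I (NFI) palindrome, TTGGC, 5 bases, GCCAA, was in 1 coding and 1 3′ UTR region.

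Some genes held several separate exonic regions. *Slc1a2*, which encodes the astrocyte glutamate transporter GLT-1, had 9 in its 3′ UTR, the most of any gene. *Aak1*, an endocytic kinase, and *Zbtb20*, a zinc finger transcription factor of astrocyte development, had 6 each in theirs. Among coding exons *Macf1*, a cytoskeletal crosslinker, had 7, *Syne1*, a nuclear envelope protein, had 6, and *Dst*, another crosslinker, and *Tchh*, a hair follicle protein, had 5 each. Over all genes, 162 had 2 or more coding regions and 263 had 2 or more 3′ UTR regions.

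The 9 *Slc1a2* regions were weak as peaks but lay on a high local background. Local background was solved from the fold and p of each peak and is given as a multiple of the lowest background of the library. At the *Slc1a2* region 5973 bp past the stop codon it was 16.3, 17.0, 12.4, 11.4, 15.4 and 12.5 (GR-con 1 to 3, GR-KO 1 to 3), while the folds were 1.79, 1.99, 1.90, 1.69, 1.57 and 1.94. Medians of the 9 regions ran from 8.31 near the stop codon to 16.8 near the end. The folds of all 9 were 1.43 to 2.30, so the summits stood little above this background. *Zbtb20* was uneven: at 5045 bp past its stop codon the median background was 8.01 with folds of 9.63 to 10.9, and at 19840 bp it was 2.19 with folds of 11.2 to 12.9. Neighbouring regions share background reads and are not independent of each other.

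**Figure D2:**
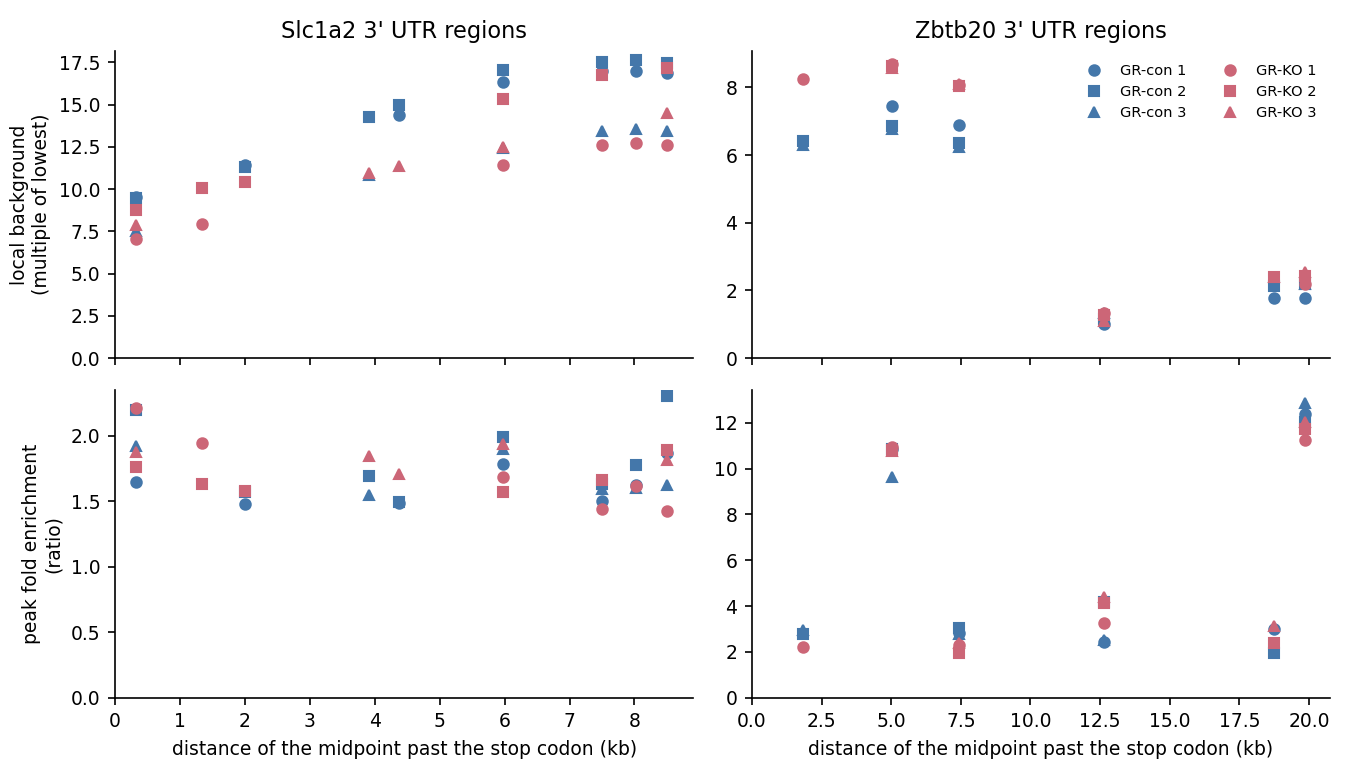
Local background (top, multiple of the lowest background of the library) and peak fold enrichment (bottom, ratio) of the exonic regions in the 3′ UTRs of *Slc1a2* (left) and *Zbtb20* (right), against distance past the stop codon (kb), with 1 point per library that had a peak. *Slc1a2* folds stay between 1.43 and 2.30 while its background is high throughout, and *Zbtb20* has tall peaks on both a high and a low background.

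The exonic regions on the highest local background included those of several astrocyte genes. The median background was 1.17 in coding, 1.32 in 3′ UTR, 1.13 in intronic and 1.00 in intergenic regions, and 317 of 3611 exonic regions (8.78%), in 262 genes, were at 4 or more. Of the 13 exonic regions in astrocyte marker genes 11 were at 4 or more, with a median of 11.3, but 9 of the 13 were those of *Slc1a2*, and of the 4 in other marker genes 2 were, in *Gfap* and *Sox9*. Of the 26 in the listed astrocyte and neural stem cell transcription factors 8 were, with a median of 1.62. Of the 10 in neuronal, oligodendrocyte, microglial and mural markers 0 were, with a median of 1.05. With each gene taken at its highest region, the highest medians were in *Fbxo2*, a ubiquitin ligase subunit that binds glycoproteins (22.1), *Gpr37l1*, an astrocyte receptor (18.9), *Pou3f3* (17.96), *Sox8* (17.2), *Slc1a2* (16.8), *Otx1* (14.6), *Capn9*, a calpain protease (14.4), *Spry2*, an inhibitor of growth factor signalling (13.5), and *Sox9*, a defining transcription factor of astrocytes (13.4). *Atp1b2*, a subunit of the sodium pump, was at 10.3, the thyroid hormone activating enzyme *Dio2* at 9.77, the proteoglycan *Bcan* at 9.74 and *Gfap*, the intermediate filament of astrocytes, at 7.96. *Gpr37l1*, *Atp1b2*, *Dio2* and *Bcan* were named after their values were seen. Many other genes lay among these values, such as *Zfp608* (13.3), *Dnajb12* (12.6), *Camk2n1* (12.5), *Dclk2* (11.5) and *Ncdn* (9.08), and 26 genes had a region at 10 or more. Regions at 4 or more had median summit coverages of 31.7 to 36.1 per library against 8.59 to 9.55 in the others, and median folds of 4.80 to 5.09 against 5.53 to 5.88.

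**Figure D3:**
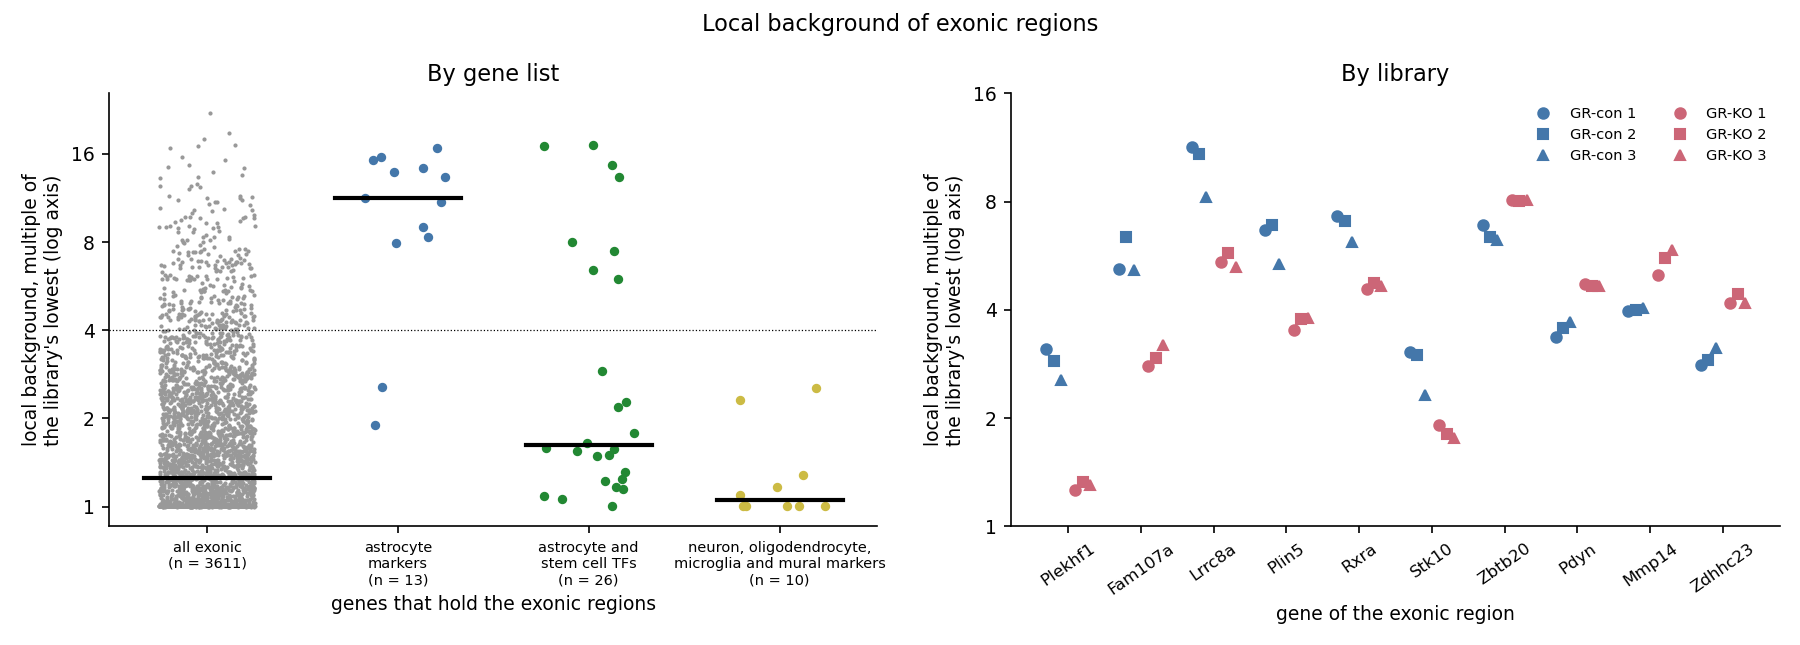
Left, local background (log axis, multiple of the lowest background of the library, median over libraries) of all exonic regions and of those in 3 sets of genes, with bars at the medians of 1.25, 11.3, 1.62 and 1.05 and a dotted line at 4. Right, local background (log axis) in each library at the first region of 10 genes named in the text, where all GR-KO points are below all GR-con points in the 6 genes on the left and above them in the 4 on the right.

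Turning to the loss of GR, 2 exonic regions were lower and 5 higher in GR-KO. Folds were ranked in each library, with regions without a peak tied lowest, and the normal scores of the ranks were compared with limma over all kept regions (adjusted p under 0.05). The 2 of 3611 lower compare with 0.214% of all kept regions, and the 5 higher with 0.11%. By class, 1 coding and 1 3′ UTR region were lower, and 4 coding regions and 1 3′ UTR region were higher. At an unadjusted p under 0.05 there were 216 lower (5.98%) and 215 higher (5.95%), against 6.3% and 6.44% of all kept regions. Of the 5 higher regions 2 had peaks in GR-KO only, so they were kept through the group in which they are high and had to differ. With the test confined to regions with a peak in all 6 libraries, 1 coding and 2 3′ UTR regions were lower and 2 and 2 higher, against 0.265% and 0.199% of all 90301 such regions. When any 1 library was left out, 0 coding or 3′ UTR regions passed, and 0 to 30 of all kept regions did. With the replicate number as a block in limma, 0 of all kept regions passed. The score differences stayed similar with 1 library left out, at −1.15 to −0.96 for *Stk10* and 0.82 to 0.95 for *Nup155*. Ranking by −log10 p in place of fold gave 28 lower and 32 higher exonic regions, against 1.12% and 1.05% of all kept regions, and all 7 were among them in the same direction.

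The lower 3′ UTR region was in *Stk10*, a kinase that phosphorylates proteins linking actin to the membrane, at chr11:32623181-32623823 in exon 19 of 19. Its folds were 11.4, 11.8 and 10.6 in GR-con and 3.73, 2.97 and 3.93 in GR-KO. The groups did not overlap, and the score difference was −1.04 (SE 0.119, limma adjusted p = 0.0212). Its local background was also lower, at 3.05, 2.99 and 2.31 against 1.91, 1.81 and 1.76. The palindrome shown above lies 8 bp from the strongest summit.

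The lower coding region was in exon 10 of 12 of *Creb3l1*, a transcription factor released from the endoplasmic reticulum membrane, at chr2:91985989-91986449. Its folds were 14.9, 14.8 and 13.4 in GR-con and 8.85, 9.04 and 9.77 in GR-KO, with no overlap (score difference −0.43, SE 0.0657, limma adjusted p = 0.0432). It held no palindrome near its summit.

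*Fam49b*, which encodes an inhibitor of RAC1-driven actin remodelling, fell just outside the threshold. Its region had its midpoint 34 bp past the stop codon (chr15:63931308-63931861), with folds of 11.4, 13.4 and 7.23 in GR-con and 2.53, 2.96 and 3.93 in GR-KO. The score difference was −1.14 (SE 0.184), past that of *Stk10*, with a wider spread in GR-con and a limma adjusted p of 0.0502.

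One of the 2 higher regions with peaks in GR-KO only is described here. It was in exon 27 of 28 of *Ankrd28*, a regulatory subunit of protein phosphatase 6 (chr14:31705168-31705528), with folds of 6.68, 5.62 and 5.80 in GR-KO. A library without a peak has no fold, so neither a fold change nor a p is given as support.

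The other 3 rose from a peak that GR-con already had. In exon 8 of 8 of *Fam217a* (chr13:34911140-34911711) folds were 7.56, 7.97 and 6.59 in GR-con and 12.8, 14.2 and 13.0 in GR-KO (score difference 0.59, SE 0.0736, limma adjusted p = 0.0269). In exon 8 of 13 of *Alg8*, a glucosyltransferase of protein N-glycosylation (chr7:97383439-97384032), they were 4.24, 4.44 and 3.59 and 8.58, 9.13 and 9.82 (0.77, SE 0.105, limma adjusted p = 0.0348). In the 3′ UTR of *Nup155*, a nuclear pore protein (chr15:8158519-8158949), they were 6.61, 4.89 and 4.73 and 11.6, 14.2 and 13.5 (0.85, SE 0.104, limma adjusted p = 0.0263). None of these 3 regions overlapped between the groups.

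**Figure D4:**
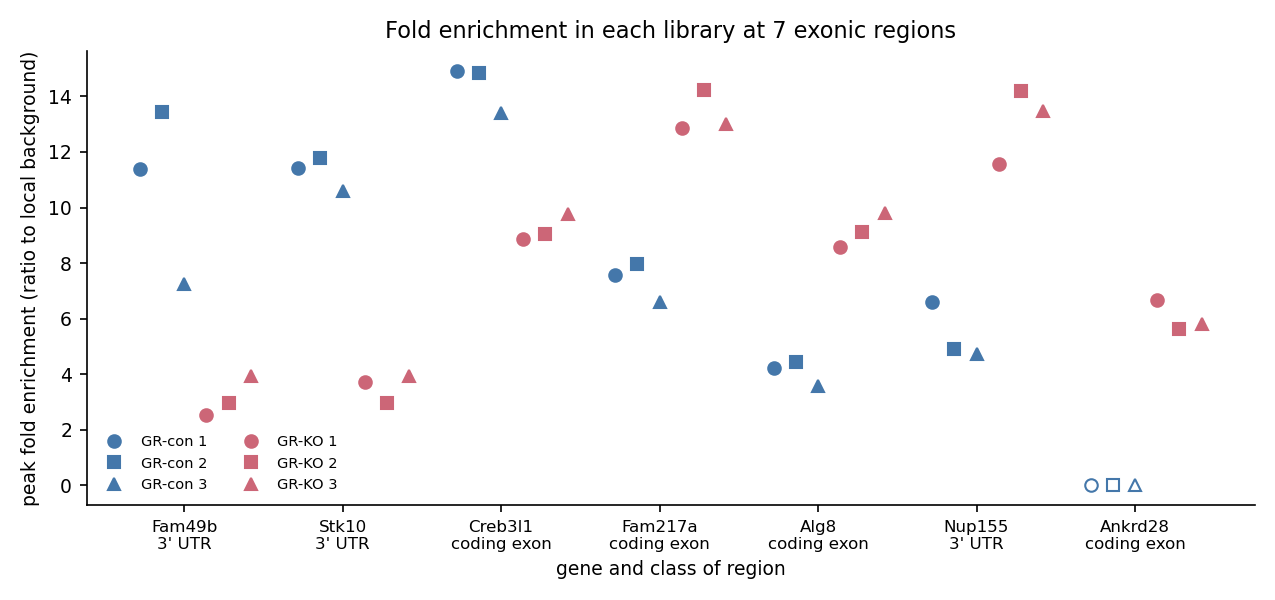
Fold enrichment (y axis, ratio to local background) in each library at 6 of the 7 exonic regions past the threshold and at *Fam49b*, which missed it at an adjusted p of 0.0502, with GR-con in blue and GR-KO in red and open markers at 0 for a library with no peak. In each of the 7 regions plotted the 3 GR-KO points lie all above or all below the 3 GR-con points.

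Several regions next in order of p did not pass and are given by value. The 3′ UTR of *Pla2g5*, a secreted phospholipase A2, had folds of 13.99, 14.1 and 13.0 in GR-con and 7.40, 7.95 and 9.54 in GR-KO (limma adjusted p = 0.0554). The last exon of *Hdc*, the enzyme that makes histamine, had 22.5, 21.3 and 24.2 against 15.5, 17.6 and 15.5 (limma adjusted p = 0.0780). Exon 13 of *Sik3*, a salt-inducible kinase, had 8.41, 8.12 and 5.64 against 12.2, 13.9 and 13.1 (limma adjusted p = 0.0554). In each of these the groups did not overlap. The 3′ UTR of *Prkaa2*, a catalytic subunit of AMP-activated kinase, had a peak only in GR-con, at 4.91, 4.33 and 4.40. The 3′ UTR of *Pigh*, an enzyme subunit of GPI anchor synthesis, had 3.02, 3.76 and 4.73 against 8.49, 10.98 and 8.79 (limma adjusted p = 0.0591).

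Some exonic regions had a peak in every library of 1 group and in none of the other, in both directions. A peak in every GR-con and no GR-KO library was found for 40 exonic regions (1.11%), against 1.19% of all kept regions, of which 16 were coding and 23 3′ UTR regions. The reverse was found for 31 (0.858%), against 0.628%, of which 11 were coding and 20 3′ UTR regions. Among the strongest were *Prkaa2*, *Ano3* and *Avl9* in GR-con only, and *Ankrd28*, *Ankrd36*, *Cstf2* and *Rprd2* in GR-KO only. Scores of the groups did not overlap in 274 exonic regions with GR-KO lower (7.59%, against 7.84% of all kept regions) and in 423 with GR-KO higher (11.7%, against 12.1%). The share with peaks in GR-KO only was somewhat above that of the kept regions as a whole, and the other shares were near it.

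Exonic regions with the GR palindrome were mostly lower in GR-KO. The palindrome was in 6 of 1604 coding regions (0.374%), 16 of 1967 3′ UTR regions (0.813%) and 0.668% of all kept regions. Of the 23 exonic regions with it, 19 (82.6%) had a lower score in GR-KO, with a median difference of −0.31, against 47.1% and a median of 0.01 in the 3588 without. The groups did not overlap in 7 of the 23 with GR-KO lower (30.4%, against 7.44% of exonic regions without) and in 1 with GR-KO higher (4.35%, against 11.8%). Of the 23, 8 had peaks in 1 group only, 7 of them in GR-con, and their direction follows from that. In the 12 with a peak in all 6 libraries 11 were lower, with a median of −0.24, against 48.4% and a median of 0.01 in the 2230 without the palindrome, and the groups did not overlap in 5 with GR-KO lower (41.7%, against 8.97%). Only *Stk10* passed limma (1 of 23), and 65 of the 937 kept regions with the palindrome (6.94%) were called lower. Of these 937, 80.9% were lower in score, with a median of −0.38, and the groups did not overlap in 44.2% with GR-KO lower. Of the 491 with a peak in all 6 libraries, 75.6% were lower.

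The palindrome regions ranged from large to small differences. In coding exon 3 of *Fbh1*, a DNA helicase that acts on recombination, folds were 13.2, 13.9 and 8.83 in GR-con and 7.12, 7.79 and 5.23 in GR-KO (score difference −0.49, limma adjusted p = 0.150). In the 5′ UTR of *Usp54*, a member of the ubiquitin protease family, they were 10.9, 12.3 and 8.18 and 4.62, 5.68 and 4.94 (−0.58, limma adjusted p = 0.0701). The strongest, in the 3′ UTR of *Ssbp3*, a cofactor of LIM homeodomain factors, had 20.8, 19.8 and 16.04 and 17.2, 15.1 and 15.5 (−0.26, limma adjusted p = 0.320), and its groups overlapped. The groups of *Fbh1* and *Usp54* did not. The *Rreb1* and *C330007P06Rik* regions had peaks only in GR-con, at 3.09, 2.99 and 3.15 and at 3.21, 5.83 and 3.04. Against this direction, *Itsn2*, an endocytic scaffold, had 10.3, 10.7 and 8.36 and 9.34, 10.9 and 10.8 (0.08), but by summit coverage its log2 difference was −0.11 scaled by background and −0.05 after quantile scaling.

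The word ACTGTA was in 134 coding regions (8.35%), 169 3′ UTR regions (8.59%) and 7.95% of all kept regions. It was chosen with earlier results of these data known, so the values below describe it and are not independent evidence of a direction. Of the 307 exonic regions with it 189 (61.6%) had a higher score in GR-KO, with a median difference of 0.07, against 51.9% and a median of 0.01 in the 3304 without it. The groups did not overlap in 62 with GR-KO higher (20.2%, against 10.9% without the word, 19.6% of all kept regions with it and 12.1% of all kept regions) and in 13 with GR-KO lower (4.23%, against 7.9%). *Nup155* and *Fam217a* passed limma (0.651%), near the 0.609% called higher of all kept regions with the word. In all kept regions with the word 61.9% were higher, with the same median of 0.07. In the 187 exonic regions with the word and a peak in all 6 libraries 58.8% were higher, against 50.7% of those without it.

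**Figure D5:**
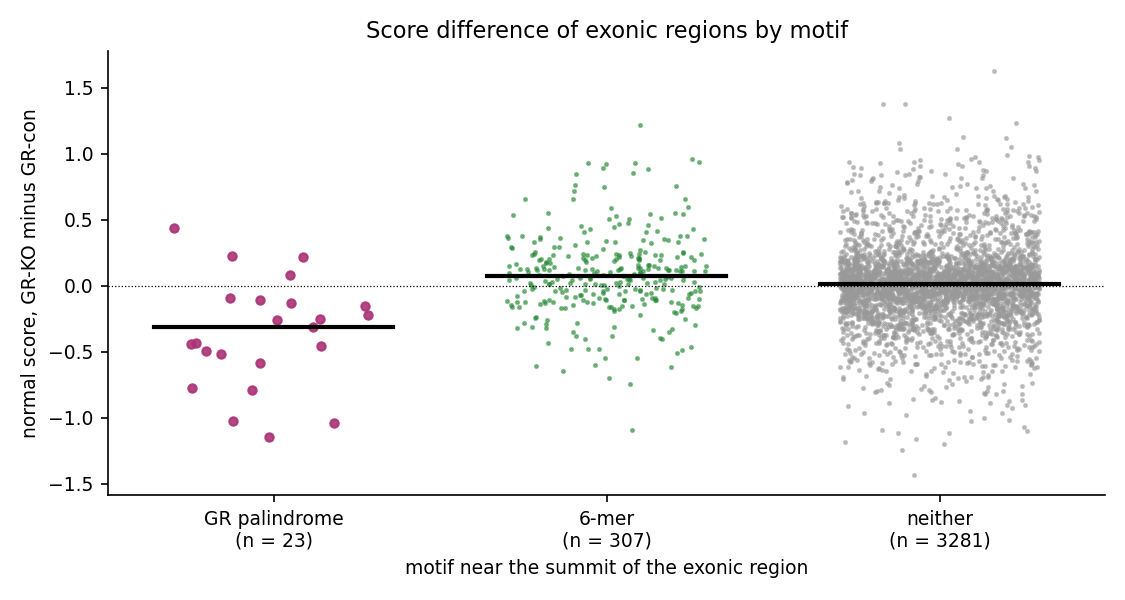
Difference in normal score (y axis, GR-KO minus GR-con) of the exonic regions with the GR palindrome, with the 6-base word and with neither (x axis), with 1 point per region and bars at the medians. Points with the palindrome lie mostly below 0, with a median of −0.31, and the other distributions are centred near 0.

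Genes linked to GR had 9 exonic regions, whose values are given as a description. Of all genes 13.0% had an exonic region, against 4 of 15 listed as activated or bound by GR, 2 of 8 GR-repressed and 2 of 17 glucocorticoid-inducible genes. The genes activated or bound by GR had 4 regions, in *Fbln1*, *Aldh1a1*, *Hif3a* and *Fam107a*, with a median score difference of −0.11 against 0.01 over all exonic regions. In exon 10 of 13 of *Aldh1a1*, an enzyme of retinoic acid synthesis, folds were 11.5, 10.7 and 11.5 in GR-con and 7.58, 8.52 and 7.86 in GR-KO (−0.28, limma adjusted p = 0.160). The *Hif3a* region had a peak only in GR-con, at 2.51, 2.51 and 2.70, near the weakest peaks. The groups of *Aldh1a1* did not overlap, as in 7.84% of all kept regions with GR-KO lower. For *Hif3a* the direction follows from its peaks being in GR-con only. The GR-repressed genes had 3 regions, 1 in *Mmp14* and 2 in *Tnc*, with a median of −0.14. The glucocorticoid-inducible genes had 2, in *Cebpd* and *Klf9*, and the 31 transcription factors had 26 in 13 genes, with a median of 0.09. By rank 0 of the 9 regions of the first 3 lists passed limma, where the shares of all kept regions were 0.214% lower and 0.11% higher. The first 2 lists are genes the study named in astrocytes, some of the first, *Hif3a* among them, for GR binding alone, so they are not independent evidence of a direction.

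Local background gave more calls between the groups than fold rank did. It was tested, in an analysis added after seeing the data, with limma in 1117 exonic regions that had a peak in all 6 libraries and a mean of 1.5 or more, with each library centred on its median. In GR-KO it was lower in 86 (7.70%, 77 genes), against 8.39% of all 44123 regions tested, and higher in 122 (10.9%, 107 genes), against 9.77%. Scaled by the lowest background alone, without centring, the counts were 125 lower and 55 higher, against 11.8% and 4.06%. The balance of the 2 directions thus rests on the centring, while 86 of the 86 lower and 54 of the 122 higher regions were called both ways. With each library left out in turn 50 lower and 52 higher regions were called every time. The matching share of all regions tested was not computed. In the single fits 6.16% to 9.11% of all regions tested were lower and 5.86% to 10.8% higher. The window over which the peak caller took this background is not given in the sources used here, so a value can reach beyond the region and the exon.

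*Fam107a*, a glucocorticoid- and stress-induced gene of actin regulation, was among the 5 exonic regions of smallest p with lower background (3′ UTR, chr14:8296442-8296817). Its local background was 5.18, 6.38 and 5.17 in GR-con and 2.79, 2.94 and 3.19 in GR-KO, a log2 difference of −0.84 (SE 0.0710, limma adjusted p = 9.88e-09). Its folds, 2.84, 2.28 and 2.04 against 2.93, 2.43 and 2.15, overlapped between the groups. Its summit coverage was 15.1, 14.8 and 10.8 in GR-con and 8.59, 7.47 and 7.13 in GR-KO (limma adjusted p = 0.0140). The local background was thus lower in GR-KO, while the score difference was 0.13 (limma adjusted p = 0.875) by fold and −0.15 (0.852) by −log10 p.

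*Mmp14*, a membrane-bound metalloprotease that cuts extracellular matrix, moved the opposite way (3′ UTR, chr14:54443763-54444584). Its local background was 3.97, 4.01 and 4.04 in GR-con and 5.01, 5.58 and 5.88 in GR-KO, a log2 difference of 0.51 (SE 0.0575, limma adjusted p = 6.67e-07). Its folds were 15.1, 15.7 and 14.3 against 11.1, 11.97 and 11.9, so relative to the background the peak was smaller in GR-KO (score difference −0.28, limma adjusted p = 0.112). The coverage at the summit was 63.4, 66.3 and 60.6 against 57.7, 69.3 and 72.7, which overlapped. *Tnc*, the matrix protein tenascin-C, was also higher in background in coding exon 2 (log2 difference 0.33, limma adjusted p = 0.0113), without a change in fold rank past the threshold. This call was lost without GR-con 1 (limma adjusted p = 0.0558) and without GR-KO 3 (0.0594).

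Background was also lower in GR-KO in the 3′ UTRs of *Lrrc8a*, *Plin5*, *Plekhf1* and *Rxra*. *Lrrc8a*, the obligatory subunit of the volume-regulated anion channel, had 11.3, 10.9 and 8.23 in GR-con and 5.45, 5.78 and 5.27 in GR-KO. *Plin5*, a lipid droplet coat protein, had 6.66, 6.88 and 5.37 against 3.51, 3.77 and 3.79. *Plekhf1*, an endosomal lipid-binding protein, had 3.12, 2.89 and 2.55 against 1.26, 1.33 and 1.30. In these 3 the log2 differences were −0.81, −0.70 and −1.07, and limma passed each, as it did for *Rxra*, the retinoid X receptor that pairs with other nuclear receptors (−0.49). *Cebpd*, a transcription factor induced by glucocorticoids, had 9.58, 9.53 and 8.22 against 6.24, 7.82 and 7.44 (−0.29, limma adjusted p = 0.00173).

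Regions with higher background included *Zdhhc23*, a palmitoyltransferase, with 2.81, 2.89 and 3.14 in GR-con and 4.17, 4.44 and 4.18 in GR-KO at the first of its 2 regions (log2 difference 0.59). *Pdyn*, the precursor of dynorphin peptides, had 3.36, 3.56 and 3.69 against 4.71, 4.65 and 4.66 in a coding exon (0.46). Of the 6 *Zbtb20* regions in the 3′ UTR 3 were tested and all 3 rose, by 0.37, 0.36 and 0.28. At the first of these the values were 6.89, 6.37 and 6.24 against 8.08, 8.03 and 8.09. The third did not pass without centring (limma adjusted p = 0.0509), nor without GR-con 1 (0.175), GR-KO 2 (0.0720) or GR-KO 3 (0.127). *Gfap* passed with centring (0.23, limma adjusted p = 0.00305) and not without it (0.131), and its groups overlapped. Of the 9 *Slc1a2* regions 3 were tested, and none passed with all 6 libraries (limma adjusted p = 0.203 to 0.701). The region at 5973 bp had a log2 difference of −0.16 and passed with the replicate block (limma adjusted p = 0.0290) and without GR-con 3 (0.000354), and the one of adjusted p 0.331 passed without GR-con 3 (0.00547). The tested regions of *Sox9*, *Sox8*, *Otx1* and *Lhx2* did not pass. The lists had few tested regions, to be read against 8.39% lower and 9.77% higher of all regions tested. In them 1 of 1 tested region of the genes activated or bound by GR, 0 of 2 GR-repressed and 1 of 1 glucocorticoid-inducible regions were lower, and 2 of 2 GR-repressed regions, in *Mmp14* and *Tnc*, were higher. Of the 10 tested transcription factor regions, in 7 genes, 0 were lower and 3 higher, and these 3 are the neighbouring *Zbtb20* regions above. *Plekhf1*, *Lrrc8a*, *Plin5*, *Rxra*, *Zdhhc23*, *Pdyn* and *Zbtb20* were named after their values were seen.

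At the limit of 2 kb from a TSS, the coding region just inside it, in *E230025N22Rik* at 2010 bp, had folds of 8.49 to 11.1, and that just outside, in *Gp5* at 1990 bp, 2.65 to 4.06. The 3′ UTR region just inside, in *Cnnm2* at 2015 bp, had 2.15 to 2.95, and that just outside, in *Kansl2* at 2000 bp, 10.5 to 13.9.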

How the data were processed

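The libraries were ATAC-seq of sorted V1 nuclei, 3 per group. Per the labels and the methods of the study, the authors ran version 2.2.0 of the ENCODE pipeline for ATAC-seq on mm10 and deposited 1 peak list per library, called at a p threshold of 0.01. Each deposited list gives a fold (a ratio to local background), −log10 p, −log10 of the q-value, a summit and a score capped at 1000, which was not used. The read counts that the study compared with edgeR in DiffBind were not used here, so ranks of fold were compared with limma (version 3.58.1, R 4.3.3, trended variance, Benjamini-Hochberg over all kept regions). This comparison of ranks within a library does not need depth, and a common change in all regions cannot be seen. Other steps used Python 3.11.15 with numpy 2.4.6, pandas 2.3.3, scipy 1.17.1, pysam 0.24.0 and matplotlib 3.10.9, and exons came from GENCODE.

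Coverage and local background were solved from each fold and −log10 p under a Poisson model with 1 added to each, an analysis chosen after seeing the data. Solved coverage came out whole within 0.05 for 100% of peaks. The lowest background, 4.28 to 4.92 reads per library, gives the relative depth, and read totals were not analysed here. The limma step was also run on simulated normal scores with known shifts. These had no ties from missing peaks, so that run does not give the power on the real ranks.

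Members, lists and words were chosen with earlier results of these data known. Regions were named by fixed rules, by class: the 5 of smallest p in each direction, the 5 strongest, the 3 strongest with peaks in 1 group only, listed genes, genes with most regions and palindrome holders. A few regions that these rules name are not reported here. Matches were sought on both strands in 201 bp. Same-numbered libraries of the 2 groups had deviations that correlated at 0.0332, −0.00177 and 0.0270, and the other pairs at −0.0312 to 0.00388. Correlations this small do not settle whether the numbers pair samples. Alternatives covered the value ranked, the q-value, the lists needed, list length, placement, distance, transcripts, width, chromosomes, variance trend, block and leaving out each library.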

Additional observations from a re-analysis of the deposited data

How the results depend on the processing

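The limma counts of lower coding, higher coding, lower 3′ UTR and higher 3′ UTR regions depended on all 6 libraries and on the value compared. They were 9, 16, 17 and 16 by −log10 p, 8, 13, 14 and 14 without the variance trend (0.727% lower and 0.511% higher of all kept regions), and 0, 0, 0 and 0 with the replicate block or with any 1 library left out (0 to 0). The numbers mark no shared animals, and whether they pair samples in another way is not known. By summit coverage, chosen after seeing the data, they were 38, 17, 47 and 27 scaled by background (against 4.22% lower and 2.07% higher of all 90301 tested) and 23, 26, 35 and 44 after quantile scaling (against 3.09% and 3.45%), of 985 coding and 1231 3′ UTR regions tested. Called shares of all kept regions ran from 0.164% to 0.296% lower and 0.0877% to 0.199% higher over the settings named next. Higher coding regions numbered 7 with a peak in 3 lists, 2 beyond 5 kb and 2 with a peak in all 6. Lower 3′ UTR regions numbered 3 with a peak in 3 lists, 2 with equal list lengths, 2 at up to 1000 bp and 2 in all 6, where 2 were higher. Lower coding regions numbered 2 by summit placement and 0 at up to 1000 bp. Membership was 1048 coding regions beyond 5 kb, and 985 coding and 1231 3′ UTR regions in all 6. Regions with peaks only in GR-KO numbered 7 coding and 13 3′ UTR beyond 5 kb, where the share of all kept regions stays at 0.628%. They numbered 11 3′ UTR at a q-value under 0.01, for which the share of all kept regions was not computed.

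Coding minus intronic percentiles were 2.56 to 3.54 and 3′ UTR minus intronic 3.38 to 4.07 with 1 library left out (exact permutation adjusted p = 0.0938, where 5 libraries allow no p below 0.0625). In the same order they were 3.74 and 1.72 in all 6 lists, and 2.22 and 4.00 by summit placement (exact permutation adjusted p = 0.0312 each). Coding minus 3′ UTR was −1.42 by −log10 p, −1.78 by summit placement and −1.29 at up to 1000 bp, and reversed to 2.02 in all 6 lists, each with an exact permutation adjusted p of 0.0312. The group difference of the 3′ UTR minus intronic percentile reversed to 0.113 with 3 lists, 0.0346 by summit placement, 0.0940 at up to 1000 bp, 0.0467 in all 6 and, over libraries left out, ran from −0.819 to 0.288, the last without GR-con 3. Local background counts, without centring, were 19 higher coding, 80 lower 3′ UTR and 36 higher 3′ UTR regions, against 11.8% lower and 4.06% higher of all 44123 tested. With centring and the replicate block they were 101 lower and 167 higher exonic regions, against 9.9% and 13.2%. With 1 library left out higher coding ran from 25 to 50 and higher 3′ UTR from 45 to 83, lowest without GR-KO 3 and GR-KO 2. The share of all tested regions called higher moved with them, from 5.86% without GR-KO 2 to 10.8% without GR-con 3.

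Of 867 values of 46 named regions under the alternatives 748 kept direction and side of the threshold, and 19, in 8 regions, changed sign, none of them called by rank. *Fam107a* became −0.148 by −log10 p, −0.801 by background-scaled and −0.700 by quantile-scaled coverage. *Cebpd* became −0.0961, −0.390 and −0.308 in the same order and −0.0521 in all 6 lists. *Zbtb20* became 0.0479, 0.114 and 0.177 in that order, and ran from −0.0769 to 0.00155 with 1 library left out, the last without GR-con 3. *Itsn2* became −0.113 and −0.0519, and *Mmp14* 0.0643 and 0.0703, by the 2 coverages, and *Tnc* 0.0237 by the second. With 1 library left out *Ankrd11* ran from −0.160, without GR-con 2, to 0.483, and *Fbln1* from −0.0374, without GR-KO 3, to 0.129, with −0.0215 without GR-con 3. The causes were not tested.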

Other observations

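Some coding exon regions were rich in CpG. Within 100 bp of the strongest summit 167 coding regions (10.4%) had 15 or more CpG, against 25 3′ UTR regions (1.27%), 0.235% of intronic regions, 29.7% of regions within 2 kb of a TSS and 7.73% of all kept regions. The highest were in *C1qtnf4* (42), *Cacna1a*, a subunit of a neuronal calcium channel (41), and, with 38 each, *Apba1*, *Exoc3l2*, *Nrg2* and *Snx20*. Of the 167 regions 64.7% had a peak in all 6 libraries.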
